A study of Mus musculus with 8 samples.

Results

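The annexins are a family of proteins that bind acidic phospholipids of cell membranes when calcium is present. Their conserved core repeats make the contact with the membrane, and a short head that differs between members binds other proteins, often small S100 proteins. In the gut epithelium they are known for vesicle traffic to the apical membrane, for links between membrane and actin, and for sealing of damaged membrane. Of 9 annexin genes listed for study, taken by their symbols in the platform's probe annotation (Anxa1 to Anxa7, Anxa11 and Anxa13), 8 had at least 1 probe and 7 were detected well enough to be tested, among 9494 genes tested in all. No probe was annotated to Anxa3, which was not analysed here.

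RNA from epithelial cells of the colonic crypt was measured in 4 surface samples and 4 crypt base samples, cut by laser capture microdissection from the distal colon of 4 male wild-type C57BL/6 mice aged 10 to 12 weeks. Each mouse gave both kinds of sample. The RNA was amplified in 2 rounds before it was labelled for Illumina bead arrays. The comparison asks how transcript levels differ between the mature surface and the crypt base, where the dividing cells lie.

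The deposited values are normalized log2 signals, and a difference of 1 log2 unit is 2-fold. A log2 signal of 5.52 is called background here, since as many signals exceeded it as had a detection p-value under 0.05. Signals of different probes do not compare as amounts of RNA. One array, surface 4, stood apart: 199 of its probes differed by over 2 log2 units from their median on the remaining arrays (184 were below it), while each of those arrays had 6 to 34 such probes. Markers other than those of epithelium were present. The summed linear signal of 6 epithelial markers was 11056 to 13752 in surface samples and 6842 to 9646 in crypt base samples, so these ranges did not overlap. For 5 smooth muscle markers it was 1949 to 11405 in surface and 6240 to 24328 in crypt base samples. For 6 leukocyte markers it was 1949 to 6435 and 1983 to 5121, with 0 markers called in either list. Such sums follow their brightest markers, mainly Krt8 for epithelium and Laptm5 for leukocytes, and do not measure cell content. Every smooth muscle marker tested had a negative change, but in replicate 3 each was higher at the surface, by 0.17 to 0.77. Each had its lowest surface signal in surface 4. The median changes were -0.84 for smooth muscle and 0.13 for leukocyte markers, with 3 and 1 at an unadjusted limma p under 0.05. Goblet and enteroendocrine cells are themselves epithelial. Of 6 goblet cell markers Tff3 and Clca1 were higher at the surface (limma adjusted p = 0.00739 and 0.0345), and of 5 enteroendocrine markers Gcg and Insl5 were lower (0.0387 and 0.0376). Of 6 fibroblast markers only Col3a1 was called, as higher (limma adjusted p = 0.0278). The fibroblast markers had a median change of -0.03, with Dcn, Col1a2 and Lum negative and Col3a1, Pdgfra and Col1a1 positive. The summed signal was 26978 to 40521 in surface and 13760 to 33946 in crypt base samples for goblet, 1492 to 2113 and 1983 to 2563 for enteroendocrine, and 1824 to 2456 and 1578 to 3121 for fibroblast markers. For 5 endothelial markers it was 829 to 1002 and 659 to 891, with a median change of 0.18 and 0 called. Pecam1 and Emcn had an unadjusted limma p under 0.05, with changes of 0.39 and 0.46, and only Kdr had a negative change. All 5 surface colonocyte markers tested were higher at the surface and all 6 proliferation markers tested were lower. Among markers with a probe, Krt20 of surface colonocytes, Cnn1 of smooth muscle, Ptprc and Cd52 of leukocytes and Gfap of enteric glia were not detected on 4 arrays. The part of other cells in the changes below was not tested, and fewer cells of a type and less RNA per cell cannot be told apart.

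Of the 7 annexins tested, 1 was higher at the surface (Anxa2), 0 were lower and 6 did not pass at an adjusted p of 0.05 in limma, with the replicate number as a block. Over all genes tested, 12.1% were higher and 10.1% were lower, 22.2% in either direction. The median change of the 7 annexins was 0.11 on the log2 scale, against -0.01 for all genes. An unadjusted p under 0.05 was reached by 3 annexins, Anxa1 and Anxa13 beside Anxa2. In 0 of the 7 did the surface and crypt base signals fail to overlap, while over all genes 9.72% lay apart with the surface higher and 9.59% with the surface lower. The highest changes in the family were those of Anxa2, of Anxa1 and, outside the 9 listed genes, of Anxa8. Anxa1, Anxa2 and Anxa8 were higher at the surface in all 4 pairs, as were 21.6% of all genes.

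**Figure D1:**
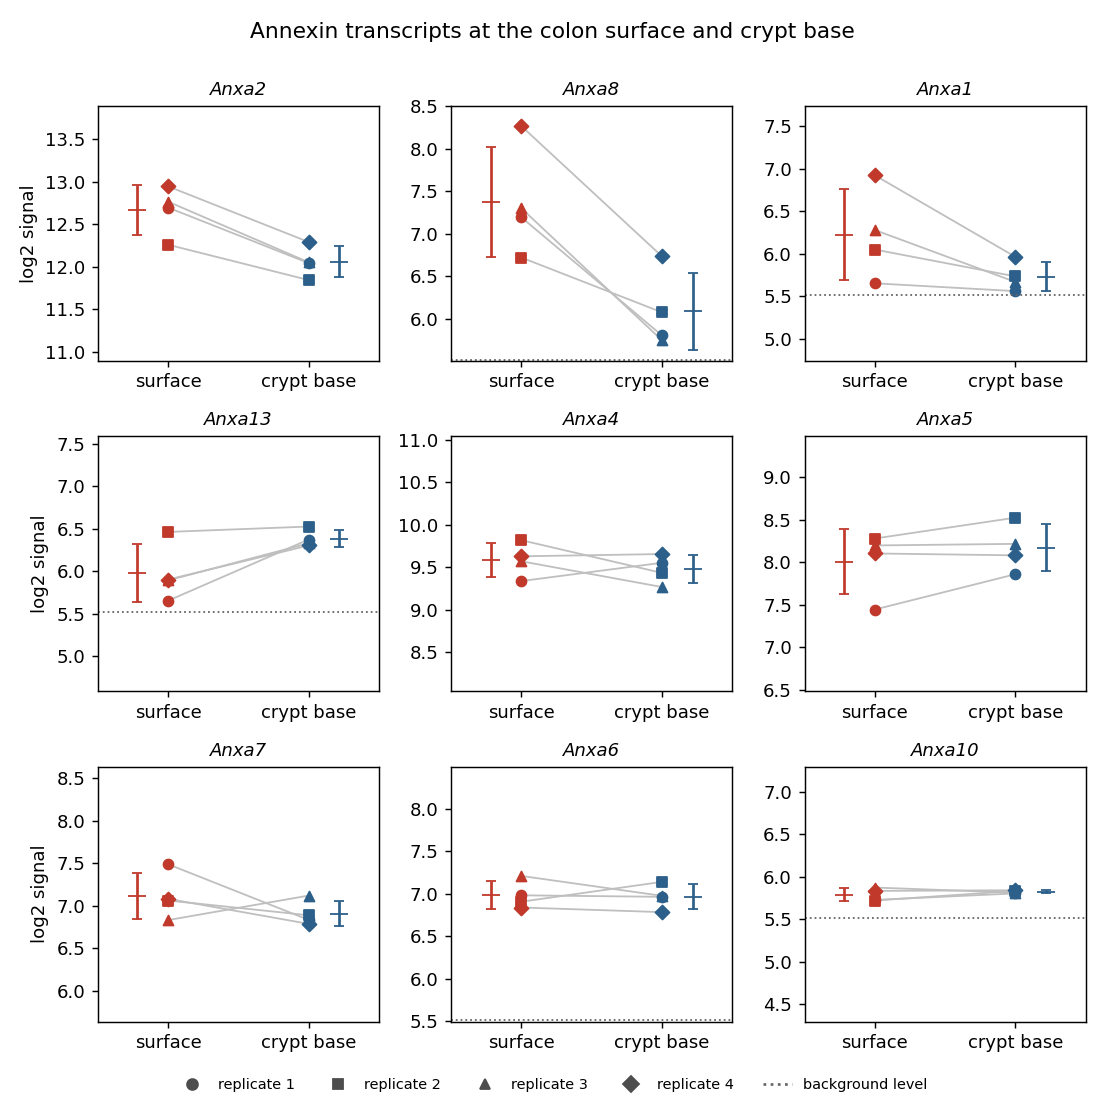
Log2 signals of 9 annexin genes, 1 panel a gene, for 4 surface samples (red, left) and 4 crypt base samples (blue, right), with grey lines joining samples of the same replicate number, bars for mean and SD, and a dotted line at background. Every panel spans 3 log2 units; lines slope down to the right in all 4 pairs for Anxa2, Anxa8 and Anxa1, and up for Anxa13, while the other panels mix directions.

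Anxa2 (gene ID 12306) encodes annexin A2, which joins the membrane to cortical actin and pairs with S100a10. Its brighter probe, ILMN_2657175, had log2 signals of 12.70, 12.26, 12.77 and 12.95 in surface samples 1 to 4, against 12.05, 11.85, 12.05 and 12.29 in crypt base samples 1 to 4. The surface was higher in every pair, by 0.42 to 0.71, but surface 2 lay just under crypt base 4. The means were 12.67 ± 0.29 at the surface and 12.06 ± 0.18 at the crypt base (SD, n = 4 each). The change was 0.61 ± 0.08 (SE), or 1.53-fold, with an adjusted p of 0.00931 in limma.

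A second Anxa2 probe, ILMN_1233117, gave log2 signals of 8.85, 8.49, 8.11 and 8.74 at the surface and 7.49, 7.90, 7.27 and 7.60 at the crypt base. Here every surface sample exceeded every crypt base sample. In the limma fit over 16013 probes, where 9.35% were higher and 7.1% lower (16.5% in either direction), its change was 0.98 ± 0.14 (1.98-fold, adjusted p = 0.0134). Both probes thus rose, and the dimmer one gave the larger difference. The brighter probe had a detection p of 0.953 on 1 array although all its signals were above 11.8. This was no rarity: of 2115 probes with a log2 signal above 8 on all arrays, 9.83% lacked a detection p under 0.05 on some array. RefSeq lists a pseudogene with the synonym Anxa2rp, and binding of its transcripts to these probes was not tested.

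Anxa8 (gene ID 11752), which is not among the 9 listed genes, changed most of the annexins. It was chosen for description as a family member on the array. Its log2 signals were 7.19, 6.72, 7.30 and 8.26 in surface samples 1 to 4, against 5.80, 6.07, 5.75 and 6.73 in crypt base samples 1 to 4. Crypt base 4 was far above the other crypt base samples and only 0.01 above surface 2, so the groups just overlapped. The means were 7.37 ± 0.65 at the surface and 6.09 ± 0.45 at the crypt base (SD, n = 4 each), a change of 1.28 ± 0.17 (SE), or 2.43-fold (limma adjusted p = 0.00881). By size of rise it stood at rank 96 of 9494 genes, where Anxa2 stood at rank 589.

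The 250 bases before the annotated starts of Anxa2 and Anxa8 are shown because these were the annexin genes that rose. They are RefSeq sequences of build GRCm38.p6, plus strand, 5′ to 3′, and 6 of the 9 listed annexins had an entry (not Anxa3, Anxa6 and Anxa13). Capitals mark matches, on either strand, to motifs of the factor families in the series title and to the TATA box. The motifs were CACCC (KLF factors), CTTTGAT (TCF/LEF factors), CAAAGTCCA (HNF4) and TATAAA.
Anxa2, chr9:69453433-69453682: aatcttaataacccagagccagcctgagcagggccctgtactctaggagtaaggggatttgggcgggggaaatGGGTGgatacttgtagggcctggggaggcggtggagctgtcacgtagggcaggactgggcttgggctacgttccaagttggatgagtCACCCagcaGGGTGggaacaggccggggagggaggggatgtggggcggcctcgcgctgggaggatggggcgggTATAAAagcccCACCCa
Anxa8, chr14:34085729-34085978: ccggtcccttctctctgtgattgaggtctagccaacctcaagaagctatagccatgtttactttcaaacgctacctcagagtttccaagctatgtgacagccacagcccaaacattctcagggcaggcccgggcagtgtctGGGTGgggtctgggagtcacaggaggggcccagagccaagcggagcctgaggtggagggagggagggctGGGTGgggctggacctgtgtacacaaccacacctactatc
Anxa2 held 4 matches to the KLF motif and 1 to the TATA box, and Anxa8 held 2 to the KLF motif and 0 to the TATA box. The TCF/LEF and HNF4 motifs had 0 matches in both. Over 32851 such windows of all genes, 52.0% held the KLF motif, 3.21% the TCF/LEF motif, 0.384% the HNF4 motif and 12.4% the TATA box. A match is a run of letters and not evidence of binding.

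Limits apply to both genes. Leaving out replicate 1 gave an adjusted p of 0.0570 for Anxa2 and 0.0548 for Anxa8, as it ended every call in limma over all genes (lowest adjusted p 0.05002, with 2512 genes at an unadjusted p under 0.05). Without surface 4, in a fit with no block, the change was 0.52 for Anxa2 (adjusted p = 0.0768) and 0.98 for Anxa8 (0.0514).

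Anxa1 (gene ID 16952) encodes annexin A1, which is induced by glucocorticoids, restrains phospholipase A2 and inflammation, and acts on formyl peptide receptors in epithelial repair. Its log2 signals were 5.65, 6.05, 6.28 and 6.92 in surface samples 1 to 4 and 5.56, 5.73, 5.67 and 5.96 in crypt base samples 1 to 4. All lay within 1.5 log2 units of background, and near background a fold change understates the difference. The pairs differed by 0.09, 0.32, 0.61 and 0.96, all with the surface higher. The change of 0.49 ± 0.15 (SE) did not pass (limma adjusted p = 0.0622), and it was 0.34 without replicate 4. Without the array surface 4 alone, with no block, it was 0.26 (adjusted p = 0.376). Its interval was 0.13 to 0.86 before adjustment for many genes.

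Anxa13 (gene ID 69787) encodes annexin A13, a lipid-anchored annexin largely restricted to the intestine and kidney and known in dog kidney cells for traffic to the apical membrane. Its log2 signals were 5.66, 6.46, 5.89 and 5.90 in surface samples 1 to 4, against 6.37, 6.53, 6.33 and 6.31 in crypt base samples 1 to 4. The crypt base samples were tightly grouped (SD 0.10, against 0.34 at the surface), and surface 2 reached into their range. The change was -0.41 ± 0.12 (SE), with the surface lower in 4 of 4 pairs by 0.06 to 0.72, and it did not pass (limma adjusted p = 0.0557). Anxa13 was thus the annexin with the lowest change, opposite in sign to Anxa1 and Anxa2.

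Samples of replicate 4 had the highest signal of their group for Anxa1, Anxa8 and the brighter Anxa2 probe, at the surface and at the crypt base alike, but not for the dimmer Anxa2 probe. Pair 2 had the smallest difference for both Anxa2 probes, Anxa8 and Anxa13. For Anxa1 it was pair 1.

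The other annexins tested showed small changes. Anxa4 (gene ID 11746), an annexin of secretory and absorptive epithelia, had log2 signals of 9.34, 9.82, 9.57 and 9.63 at the surface and 9.55, 9.43, 9.27 and 9.66 at the crypt base. Its pairs were split evenly, 2 up and 2 down, and the change was 0.11 ± 0.12 (SE), with an interval of -0.18 to 0.41. Leaving out 1 replicate at a time gave 0.020 (without replicate 2) to 0.220 (without replicate 1).

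Anxa5 (gene ID 11747), which binds exposed phosphatidylserine and limits clotting, had log2 signals of 7.45, 8.28, 8.20 and 8.11 at the surface and 7.86, 8.53, 8.22 and 8.08 at the crypt base. Surface 1 was the low value, and the surface was lower in 3 of 4 pairs. The change was -0.16 ± 0.10, with an interval of -0.41 to 0.08 (limma adjusted p = 0.294). Without replicate 1 it was -0.08.

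Anxa6 (gene ID 11749), known from muscle and from endosome membranes, had log2 signals of 6.98, 6.91, 7.21 and 6.84 at the surface and 6.97, 7.14, 6.98 and 6.79 at the crypt base with its brightest probe. The change was 0.02 ± 0.10, with an interval of -0.22 to 0.25. Its direction turned to -0.05 without replicate 3 and to -0.09 with the mean of its probes. The other 2 probes, ILMN_1241363 and ILMN_1256492, were at background, with 4.71 in surface 4 for each and changes of -0.11 and -0.18 that did not pass.

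Anxa7 (gene ID 11750), or synexin, a calcium-dependent membrane fusion protein, had log2 signals of 7.49, 7.06, 6.83 and 7.08 at the surface and 6.83, 6.89, 7.12 and 6.79 at the crypt base with its brightest probe. Pair 3 went against the others. The change was 0.21 ± 0.15, whereas the other detected probe, ILMN_1254239, had -0.07 ± 0.21, so the probes differed in sign and neither passed. The change was 0.060 without replicate 1, 0.374 without replicate 3 and 0.069 with the mean of its detected probes. Of 14 probes of the listed annexins, 11 were detected on 4 or more arrays.

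**Figure D2:**
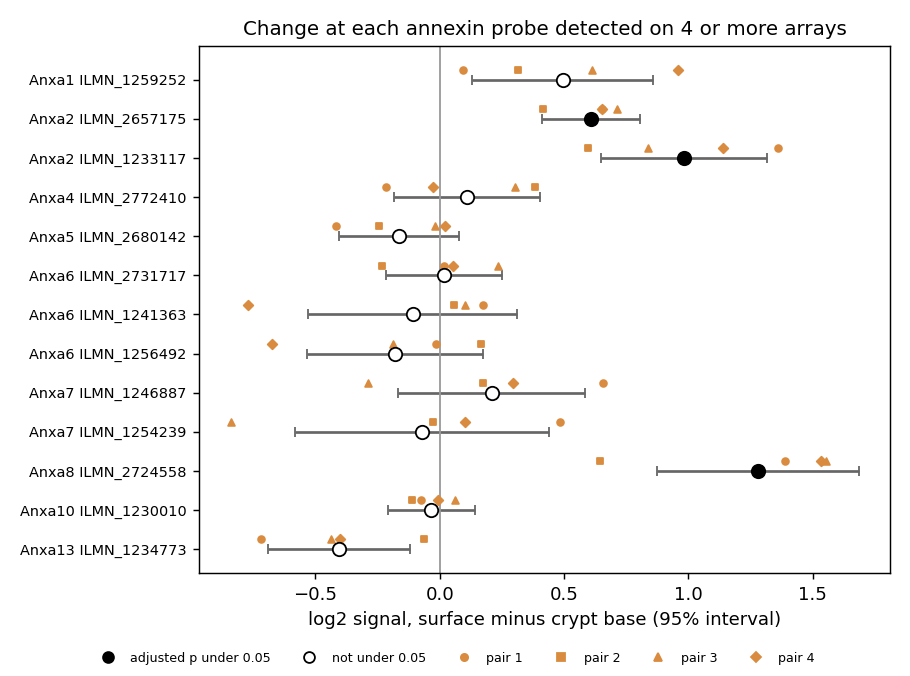
Change in log2 signal, surface minus crypt base, for each annexin probe detected on 4 or more of 8 arrays (large circles, black where the adjusted p over all probes is under 0.05, with 95% intervals) and for each pair (small orange marks). Both Anxa2 probes and the Anxa8 probe are black, at 0.61, 0.98 and 1.28, and the Anxa7 and Anxa6 probes lie on both sides of 0.

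The single Anxa11 probe was detected on 0 of 8 arrays, with log2 signals of 5.04 to 5.25 at the surface and 5.24 to 5.38 at the crypt base. Anxa11, an annexin of RNA granules and lysosomes, was therefore not measurable with this probe. Anxa9 was likewise detected on 0 arrays. Of 3 Anxa10 probes 1 was detected, with signals of 5.72 to 5.87 at the surface and 5.80 to 5.84 at the crypt base, a change of -0.03 ± 0.07 just above background. An undetected or dim probe gives no bound on the RNA.

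**Figure D3:**
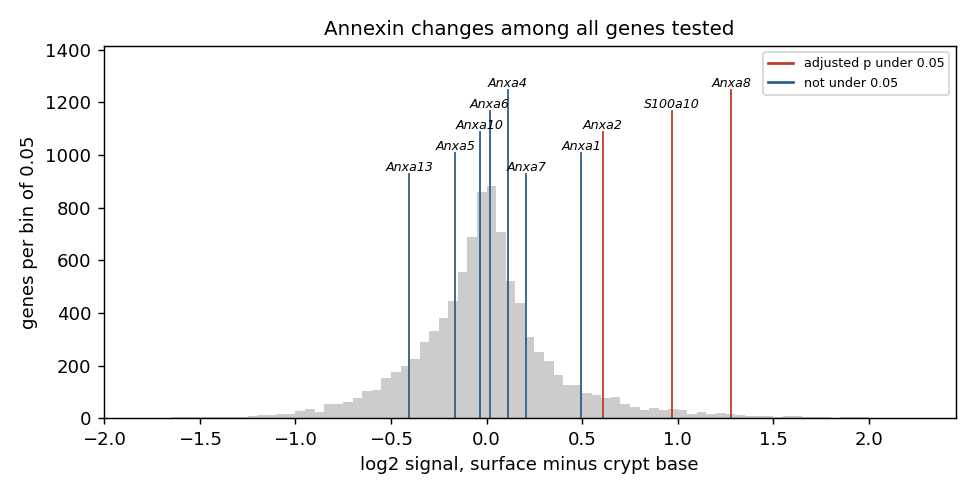
Histogram of the change in log2 signal, surface minus crypt base, over 9494 genes (grey, bins of 0.05), with lines at the 9 annexins tested and at S100a10 (red where the adjusted p is under 0.05, blue where not). Anxa4, Anxa5, Anxa6, Anxa7 and Anxa10 lie in the central bulk, Anxa13 at -0.41, and S100a10 and Anxa8 far to the right.

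The genes whose profiles over the 8 samples lay closest to that of Anxa2 were sought among 9485 genes, by the root mean square difference between log2 profiles centred on their own mean. They were Klc4, a kinesin light chain gene (0.06), Tfcp2l1, a transcription factor gene (0.07), and Ckmt1, the mitochondrial creatine kinase gene (0.08). Their changes were 0.65 ± 0.07, 0.62 ± 0.09 and 0.63 ± 0.09. For Anxa8, added after its values were seen, they were Kyat1, a kynurenine aminotransferase gene (0.16), Mep1a, a meprin subunit gene (0.18), and Ifngr1, an interferon gamma receptor gene (0.18). These had changes of 1.21, 1.59 and 1.29. All 8 samples share the division into surface and crypt base, so likeness includes that division. The changes of these genes follow from how they were chosen and are no separate result.

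Partner and family genes of the annexins came from lists that together held 57 genes, Anxa8, Anxa9 and Anxa10 included. Of these, 37 were tested. Several lists group genes by function, such as membrane repair or phosphatidylserine exposure, and not by binding to an annexin. Of the S100 and penta-EF-hand partners tested, 1 of 4 and 0 of 2 were called. Of the 37 genes tested, 13 were higher at the surface (35.1%, Anxa8 among them), 0 were lower and 24 did not pass. The median change of the 37 was 0.25. All genes tested had 12.1% higher and a median of -0.01. The lists were chosen with earlier results of these data known, so this difference in share is not an independent result. The listed epithelial markers also shifted, with a median of 0.58 and 3 of 6 called higher.

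S100a10 (also called p11), the obligate light chain of the annexin A2 tetramer, had log2 signals of 10.83, 10.69, 10.62 and 10.95 in surface samples 1 to 4, against 9.66, 9.88, 9.83 and 9.85 in crypt base samples 1 to 4. The groups were clearly apart. The means were 10.77 ± 0.15 at the surface and 9.80 ± 0.10 at the crypt base (SD, n = 4 each), a change of 0.97 ± 0.10 (SE), or 1.96-fold (limma adjusted p = 0.00739). It passed without surface 4 (0.91, adjusted p = 0.00836) and missed narrowly without replicate 1 (0.90, adjusted p = 0.05002).

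The other S100 partners did not pass. S100a6, a partner of several annexins, had 13.94 to 14.05 at the surface and 13.81 to 14.05 at the crypt base, close to the highest value on the arrays (14.20), where differences may be compressed. Its change of 0.02 ± 0.07 turned to -0.01 without replicate 3. S100a1 and S100a4 had changes of 0.25 ± 0.09 and 0.01 ± 0.15, S100b was detected on 0 arrays, and S100a11, the partner of annexin A1, had no annotated probe.

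Among ligands of annexin A2 and genes of plasminogen activation, 2 of 5 were higher (40%, against 12.1% of all genes). Ahnak, a giant scaffold protein that binds the annexin A2 complex, had log2 signals of 12.90, 13.06, 13.23 and 13.53 at the surface and 12.48, 12.66, 12.12 and 12.28 at the crypt base. The groups did not overlap, and the change was 0.79 ± 0.17 (limma adjusted p = 0.0256). Of its further probes, 1 had a change of 0.84 ± 0.13 and passed, and 1 had 0.26 ± 0.32 and did not. Plgrkt, a membrane receptor for plasminogen, rose by 0.45 ± 0.10 (limma adjusted p = 0.0245). Plau, the urokinase gene, had 0.48 ± 0.14 (0.0600), Plat, the tissue activator gene, 0.16 ± 0.15 and Plaur, the urokinase receptor gene, 0.10 ± 0.07.

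Of the penta-EF-hand calcium proteins, Sri (sorcin), which binds annexin A7, had a change of 0.21 ± 0.08 that did not pass (limma adjusted p = 0.127), while its dimmer probe had 0.39 ± 0.08 and passed over all probes (0.0288). Pdcd6 (ALG-2), which binds annexins A7 and A11, was detected on 0 arrays. Of 4 genes for annexin A1 receptors and phospholipase A2, 0 could be tested: Fpr1 and Fpr3 had no annotated probe, and Fpr2 and Pla2g4a were detected on 3 and 0 arrays.

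In the membrane repair list 5 of 11 genes were higher (45.5%) and 0 were lower, against 12.1% and 10.1% of all genes. The list median was 0.34, and that of the listed epithelial markers was 0.58. The 5 that passed, Tsg101, Chmp4b, Chmp3, Vps4a and Chmp2a, encode parts of the ESCRT machinery, which pinches off damaged membrane. Tsg101 rose by 0.52 ± 0.09, Chmp4b by 0.52 ± 0.12 and Chmp3 by 0.47 ± 0.10 (limma adjusted p = 0.0158, 0.0300 and 0.0249). Signals of Tsg101 were 8.14 to 8.56 at the surface and 7.37 to 8.04 at the crypt base, with no overlap. Vps4a rose by 0.34 ± 0.09 and Chmp2a by 0.29 ± 0.08 (0.0462 and 0.0443). A dimmer Chmp2a probe had 0.18 ± 0.07 and did not pass over all probes (limma adjusted p = 0.169). Over 15 alternative fits, Tsg101 and Chmp4b passed in 11, Chmp3 in 10, Vps4a in 8 and Chmp2a in 7. Genes tied to the same machinery that did not pass were Pdcd6ip (ALIX), with 0.30 ± 0.14, and Vps4b, with 0.15 ± 0.09 (0.181 and 0.265). The calpain genes Capn2 and Capns1, whose proteases cut annexins and other cortical proteins, had 0.59 ± 0.18 and 0.52 ± 0.15 and did not pass (0.0666 and 0.0521). Dysf and Myof, the ferlin genes of membrane repair, had 0.10 ± 0.12 and -0.01 ± 0.07 near background.

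Of 6 copines and other calcium-dependent lipid binders tested, 2 were higher (33.3%, against 12.1% of all genes). Sytl1, a Rab27 effector of secretory vesicles, rose by 0.46 ± 0.11 and Cpne2, a copine, by 0.44 ± 0.09 (limma adjusted p = 0.0328 and 0.0216). Sytl4, of the same family as Sytl1, had the opposite sign, with 6.46 to 6.63 at the surface and 6.72 to 6.84 at the crypt base. Its groups did not overlap, and its change of -0.21 ± 0.08 did not pass (limma adjusted p = 0.104). Of 7 genes of phosphatidylserine exposure tested, 2 were higher (28.6%, against 12.1% of all genes). These were the scramblase family genes Plscr4, by 0.69 ± 0.17, and Plscr1, by 0.54 ± 0.09 (limma adjusted p = 0.0356 and 0.0143). Mfge8, a phosphatidylserine-binding bridge for engulfment, had -0.34 ± 0.30.

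**Figure D4:**
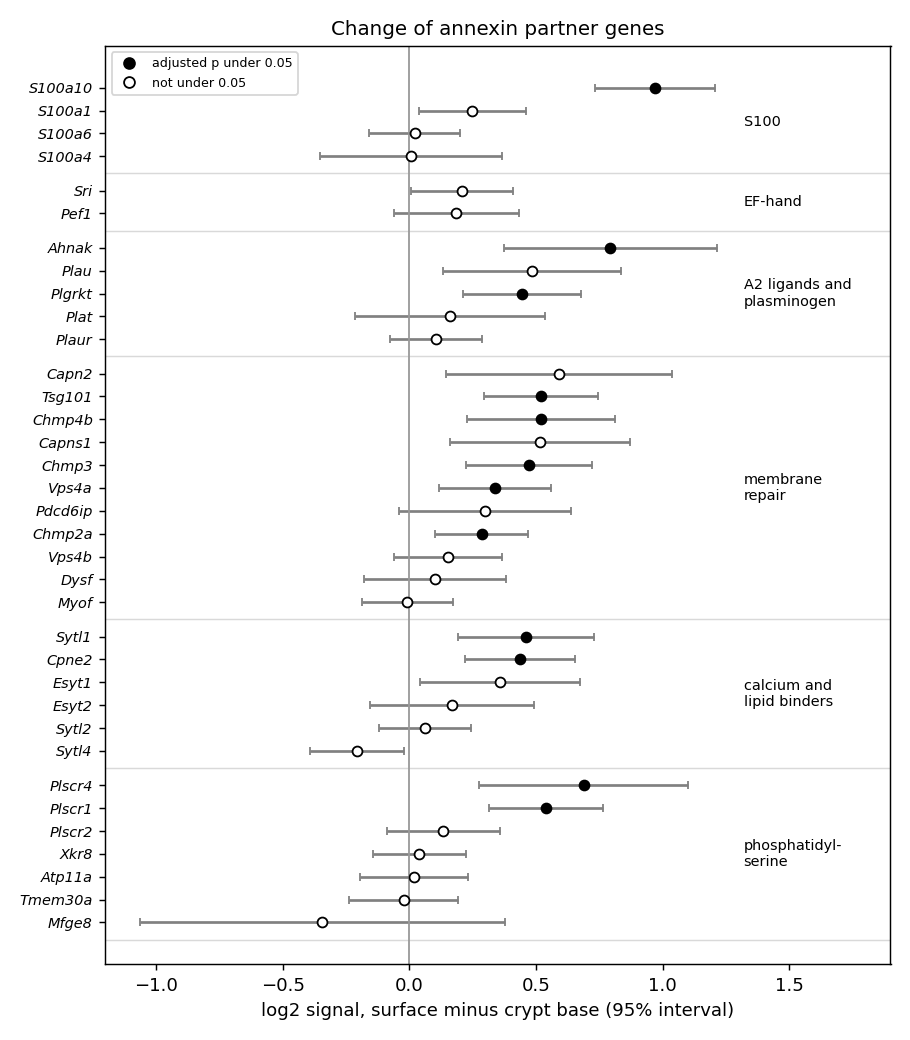
Change in log2 signal, surface minus crypt base, for genes of the partner and family lists, annexins left out, with 95% intervals (black circles where the adjusted p over all genes is under 0.05, open where not). Of the genes drawn, S100a10 stands furthest right at 0.97, and no black circle lies left of 0.

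Other fits moved the count of 13 in both directions. The block as a random effect gave 15 higher and 1 lower, array weights gave 16 higher, and the fit without replicate 2 gave 14 higher and 1 lower. With no replicate block 6 of the 37 listed genes were higher, while over all 9494 genes the count higher fell from 1147 to 688. In that fit the adjusted p missed the threshold for Plgrkt (adjusted p = 0.0860), Tsg101 (0.0618), Chmp3 (0.0538), Sytl1 (0.272) and Plscr4 (0.141), among others. Without replicate 3, 6 were higher and Ahnak had an adjusted p of 0.0813; without replicate 4, 3 were higher. Without replicate 1, 0 listed genes and 0 of all genes were higher.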

How the data were processed

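Epithelium from the surface and the crypt base was measured on Illumina bead arrays, 4 samples each. The authors deposited normalized log2 values for 46632 probes. GenomeStudio is named, with no version, in the submitters' processing notes, which do not state how the values were normalized. At 99.0% of ranks the sorted values of the 8 arrays lay within 0.01 log2 units. Quantile normalization as an alternative could therefore change little. Detection p-values were deposited in a further table, whose 8 signal columns carry names that no label matches, so they were left out. The p-values served only as the number of arrays with a p under 0.05. Precision is limited by how few arrays there are.

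Of the probes, 29976 had 1 gene symbol, 10 several and 16646 none. Each gene was represented by its brightest probe, and genes detected on at least 4 arrays were tested with limma 3.58.1 in R 4.3.3 (lmFit, eBayes, two-sided, Benjamini-Hochberg), taking replicate number as a fixed blocking term. The fit was tested on simulated data. Changes are surface minus crypt base, and intervals are 95% intervals from the fit.

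The design text states that each mouse gave both samples, but no label says that the number marks the mouse. Across genes, the deviations of a surface and a crypt base sample that share a number correlated at 0.45, 0.39, -0.04 and 0.48 for numbers 1 to 4, and those of unlike number at -0.49 to 0.31. The word pair carries this limit.

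The members and gene lists were chosen with earlier results of these data known. Genes were named by rule: all annexins, up to 3 called members a partner list with the largest changes, the partners S100a10, S100a6, S100a11, Sri and Pdcd6, and the 3 nearest profiles of each annexin called. Anxa8 as a start of that search, and the listed genes named with values that did not pass, were chosen after values were seen. Vps4a and Chmp2a, called members beyond the 3 of their list, were named as well. Alternatives changed the block, normalization, detection filter, probe choice, background floor, prior, array weights and the samples used.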

Additional observations from a re-analysis of the deposited data

Results flagged for a closer look

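Within groups of 4 samples, a sample was singled out where its gap to the nearest other sample was above Dixon's 95% critical share of the group's range. Of 66 groups of annexin probes and named partner and family genes, 7 met this (10.6%), and chance flags about 5%. For Anxa6, surface 4 lay below the other surface samples with both dim probes (a log2 signal of 4.71 each). With 1 of them, ILMN_1241363, crypt base 1 lay above its group at 5.52, over a narrow range. Surface 4 is the array that stood apart over all probes. The undetected Anxa11 probe was low in surface 1 (5.04) and the undetected Anxa9 probe in crypt base 4 (4.90). Among the partner and family genes, Chmp4b was high in surface 1 (10.35) and Cpne2 low in crypt base 4 (5.62).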

How the results depend on the processing

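Over 15 alternatives, or 14 where the filter removed it, the changes of Anxa2, Anxa8, S100a10, Anxa1 and Anxa13 kept their direction. Changing only the block, detection filter, background floor or prior could not alter these estimates, so a kept direction there is no test. Quantile normalization and median centring left Anxa8 at 1.28 and S100a10 at 0.97. Anxa2 passed in 12 of 14 (0.52 to 0.80), Anxa8 in 13 of 15 (0.98 to 1.49) and S100a10 in 14 of 15 (0.90 to 1.03). Anxa1 passed in 2 and Anxa13 in 3 of 15. Anxa6 reversed with the mean of its probes (-0.0897) and in the fit without replicate 3 (range over fits without 1 replicate -0.053 to 0.102), as S100a6 did (-0.013 to 0.041). The tested annexins numbered 2 higher and 1 lower with trend and robust, and 2 higher and 1 lower with array weights, where 1 annexin probe was lower. With probes detected on all 8 arrays 0 annexins and 1 annexin probe were higher, since the brighter Anxa2 probe was left out. No replicate block gave 688 genes higher and 579 lower and 6 partner and family genes higher, against 1147, 963 and 13. Without surface replicate 4 and with no replicate block they were 532, 399 and 3, with 0 annexins and 1 annexin probe higher. The block as a random effect gave 1 partner or family gene lower. Leaving out replicates gave 0 to 1157 genes higher and 0 to 1146 lower. In these fits 0 to 14 partner and family genes were higher and 0 to 1 lower. The annexins there numbered 0 to 1 in each direction, and the annexin probes 0 to 2 higher and 0 to 1 lower. The counts without replicate 1 were 0 in limma, with 2512 genes at an unadjusted p under 0.05. The replicate block changed no call of Anxa2 or Anxa8 (adjusted p 0.0374 and 0.0406 without it). The causes were not tested.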
